A study of Mus musculus with 4 samples.

Results

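The genes of this account encode GATA factors and the subunits of the protein complex built around TAL1, LMO2 and LDB1 in red cell precursors. They were chosen by name: every array feature whose annotation gives a single gene counted where that gene is Gata1, Gata2, Zfpm1, Tal1, Lyl1, Lmo2, Ldb1, Cbfa2t3, Tcf3 or Tcf12. All 10 genes were found, among 19938 genes with a feature of their own, and they have 11 features, because Cbfa2t3 has 2.

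Messenger RNA was measured on 4 Affymetrix Mouse Gene 1.0 ST arrays, 1 for each of 2 cultures of 2 mouse erythroid systems. MEL is an erythroleukemia line that was kept in DMEM with serum, glutamine and puromycin and set to differentiate with 17b-estradiol for 48 hours. ES-EP is a line of erythroid progenitors derived from embryonic stem cells. It had been expanded in StemPro34 medium with Epogen (erythropoietin), hIGF-1, dexamethasone, SCF and b-mercaptoethanol, and was differentiated for 24 hours in StemPro34 with Epogen, insulin, mifepristone and b-mercaptoethanol. Both groups were differentiating, each is a single line, and the line, medium, inducer and hours differ together, so their parts in a difference cannot be told apart. The labels name puromycin and estradiol without a construct, and no source used here says whether the MEL line carries an introduced gene. Nothing in the labels says that the duplicate cultures were grown apart in time. The p-values thus rest only on the spread between these duplicates, a gene's own together with that over all tested features.

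GATA1 is the DNA-binding factor that drives red cell genes, and GATA2 is its relative in earlier progenitors, whose gene is shut down as GATA1 takes over. FOG1, the product of Zfpm1, binds GATA1 but not DNA. TAL1, or its close relative LYL1, pairs with an E protein, made from Tcf3 or Tcf12, to bind the short DNA motif called an E-box. LMO2 joins this pair to LDB1, an adaptor that binds itself and brings distant enhancers to promoters, and ETO2, the product of Cbfa2t3, is the complex's corepressor.

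Promoters of 4 members are shown because these genes passed the test below and stand for different roles: the GATA factor, the related pair of helix-loop-helix factors and the corepressor. The sequences are the 250 bases before the transcription start, 5′ to 3′ on the gene's strand, from RefSeq on GRCm38.p6. Capitals mark GATA sites (AGATAA with its variant AGATAG, and TGATAA with its variant TGATAG, searched on both strands) and E-boxes (CANNTG, which reads the same pattern on both strands).
Gata1, chrX:7967911-7968160, minus strand: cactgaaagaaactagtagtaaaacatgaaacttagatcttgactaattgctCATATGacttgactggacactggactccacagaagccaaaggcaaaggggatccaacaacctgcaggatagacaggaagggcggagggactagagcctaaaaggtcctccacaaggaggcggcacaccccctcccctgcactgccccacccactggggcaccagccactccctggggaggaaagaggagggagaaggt
Tal1, the first of 2 starts, chr4:115056176-115056425, plus strand: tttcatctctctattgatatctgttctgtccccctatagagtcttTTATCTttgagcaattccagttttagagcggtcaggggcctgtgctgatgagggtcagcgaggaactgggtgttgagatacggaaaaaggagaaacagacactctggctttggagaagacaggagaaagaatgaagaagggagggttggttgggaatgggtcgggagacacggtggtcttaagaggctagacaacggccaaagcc
Lyl1, chr8:84701207-84701456, plus strand: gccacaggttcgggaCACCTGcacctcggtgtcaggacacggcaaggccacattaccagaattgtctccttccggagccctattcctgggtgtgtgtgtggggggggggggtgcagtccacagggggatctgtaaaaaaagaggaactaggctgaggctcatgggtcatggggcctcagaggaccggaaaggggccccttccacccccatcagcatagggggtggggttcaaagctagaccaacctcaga
Cbfa2t3, the first of 2 starts, chr8:122699110-122699359, minus strand: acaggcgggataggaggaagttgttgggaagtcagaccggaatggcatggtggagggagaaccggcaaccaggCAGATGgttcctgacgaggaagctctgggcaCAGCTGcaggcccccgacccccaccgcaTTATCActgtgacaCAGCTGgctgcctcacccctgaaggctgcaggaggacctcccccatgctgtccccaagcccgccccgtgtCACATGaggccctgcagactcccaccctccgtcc

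Motifs were searched from 250 bases before to 50 bases after each start. A promoter entry was found for 9 of the 10 members, all but Lmo2, with 16 starts between them. A GATA site was present at 3 of the 16 starts, against 29.8% of 32851 promoters of the same length in the genome. The first Cbfa2t3 start holds the site TTATCA at position -118, between E-boxes at -146 and -104, and the first Tal1 start holds TTATCT at -205. The third GATA-bearing start is the last of the 3 starts of Ldb1, with sites at -240 and -200. An E-box was present at 11 of the 16 starts, against 72.3% of all promoters. The form CAGATG, which is also a CANNTG and was counted in both, was present at 2 of the 16, against 17.2%. The Lyl1 promoter holds the E-box CACCTG at -235, and the Gata1 promoter holds CATATG at -198 and no GATA site in this window. These are matches of letters, and binding was not measured.

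The genes of the complex differed between MEL and ES-EP cells in both directions. Gata1, Zfpm1 and Cbfa2t3 were higher in MEL, by 1.27-fold to 2.05-fold. Tal1, Lyl1, Tcf3 and Lmo2 were lower in MEL, by 1.35-fold to 2.36-fold. Gata2, Ldb1 and Tcf12 did not pass the test. A gene passed at an adjusted p under 0.05 in limma, fitted on all 28944 tested features with Benjamini-Hochberg adjustment.

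These counts lie close to those of the arrays as a whole and are no result about the complex. Of all genes, 21.8% passed as higher in MEL and 36.9% as lower, against 3 and 4 of the 10 members. With a difference of at least 2-fold required as well, 7.38% of genes passed as higher and 4.93% as lower, against 1 and 2 members. The 2 MEL values lay wholly above or below the 2 ES-EP values in 9 of 10 members and in 80.2% of all genes. On the log2 scale, differences (MEL minus ES-EP throughout) had a median of -0.18 over the members and -0.14 over all genes. The share of higher among all passing genes was 37.1% on the deposited values, 48.3% after quantile normalization and 54.3% after cyclic loess, so the balance of directions depends on the scaling. In such bulk RNA, fewer cells of a type and less RNA per cell cannot be told apart.

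**Figure D1:**
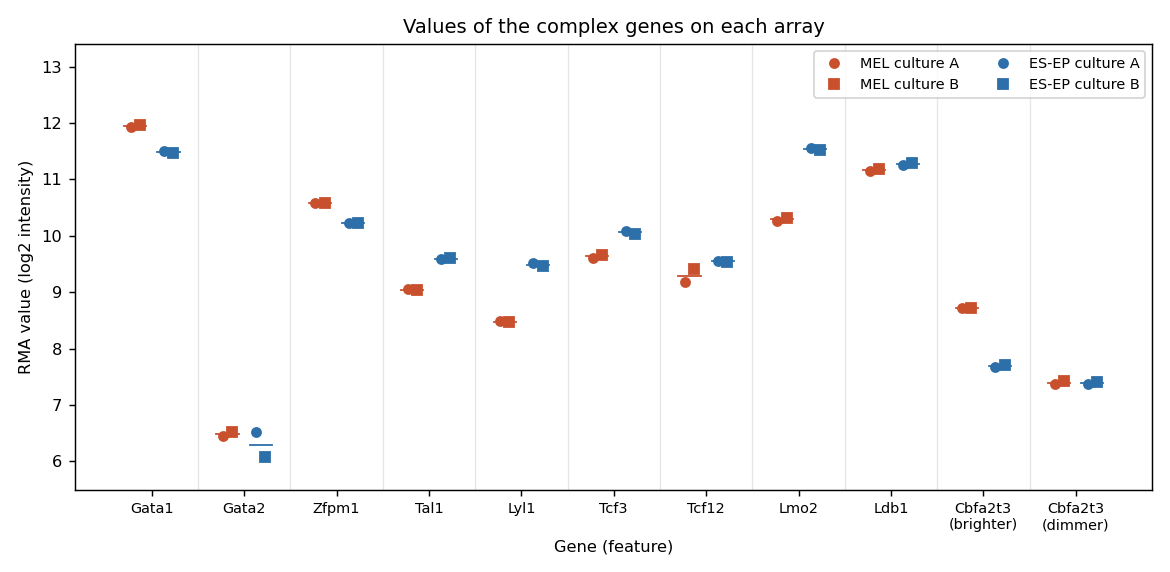
RMA values (log2 intensity, vertical axis) of the 11 member features on the 4 arrays, MEL in red and ES-EP in blue, circles for culture A and squares for culture B, with a bar at each group's mean. Only points of 1 feature can be compared; the ES-EP duplicates of Gata2 are the farthest apart, at 6.52 and 6.07.

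The GATA factors come first. Gata1 (feature 10603417) read 11.92 and 11.96 in the MEL cultures and 11.50 and 11.47 in the ES-EP cultures, as log2 RMA values. Both MEL values lay above both ES-EP values, with a gap of 0.43 between the groups against 0.04 and 0.02 within them. The difference of 0.46 ± 0.08 (SE, n = 2 per group), or 1.37-fold, passed (limma, adjusted p = 0.00251). Were an introduced gene with Gata1 sequence present in the MEL line, this feature could read its mRNA as well, and the value would then not be that of the cells' own gene alone; this was not tested. A difference at least this far upward was seen in 15.8% of all genes. It kept its sign and passed in all 15 alternative fits, at 0.44 to 0.57.

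Gata2 (feature 10539873) read 6.44 and 6.51 in MEL and 6.52 and 6.07 in ES-EP cells. The groups overlapped, since ES-EP culture A lay above both MEL cultures and culture B below them. The arrays' medians were 5.78 to 5.91, which puts all 4 values a little above the middle of the features, and the table has no detection calls. The difference of 0.18 ± 0.14 (SE, n = 2 per group, 95% interval -0.16 to 0.52) did not pass (limma, adjusted p = 0.313). Its value turned on the ES-EP duplicates: it was 0.41 without culture A (adjusted p = 0.0335) and -0.04 without culture B (adjusted p = 0.827).

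Zfpm1, the FOG1 gene (feature 10576090), read 10.58 in each MEL culture and 10.23 in each ES-EP culture. Its duplicates were the closest of the set, within 0.0032 in MEL and 0.0029 in ES-EP cells. The difference of 0.35 ± 0.08 (SE, n = 2 per group), 1.27-fold, passed (limma, adjusted p = 0.00808). It was as large with fewer arrays but missed the threshold without ES-EP culture A (0.35, adjusted p = 0.0592) or B (0.35, adjusted p = 0.0568). Gata1 and Zfpm1 thus differed in the same direction, and the ratio of their values within an array shifted by 0.11 (log2) between the groups.

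Among the helix-loop-helix factors, both DNA-binding relatives were lower in MEL. Tal1 (feature 10507131) read 9.05 and 9.03 in MEL and 9.58 and 9.61 in ES-EP cells. The groups were 0.53 apart at their nearest values, and the duplicates lay within 0.02 of each other. The difference was -0.55 ± 0.08 (SE, n = 2 per group), 1.47-fold lower in MEL (limma, adjusted p = 0.000986). Measured within each array, a ratio is not altered by a constant shift of that array, although scalings that depend on intensity can alter it. The ratio of Gata1 to Tal1 was higher in MEL by 1.01 (log2), or by 1.05 after quantile normalization.

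Lyl1 (feature 10573419) read 8.48 and 8.46 in MEL and 9.51 and 9.46 in ES-EP cells. Every MEL value lay about a log2 unit under every ES-EP value. The difference was -1.02 ± 0.08 (SE, n = 2 per group, 95% interval -1.21 to -0.82), 2.02-fold lower in MEL (limma, adjusted p = 4.7e-05), and 4.79% of all genes were at least as far down. It sat at the edge of the 2-fold criterion: it was -0.97 after quantile normalization, -0.95 after median centring, -0.92 after cyclic loess and -0.99 without ES-EP culture A, and passed the test in all of them. Lyl1 was lower by more than Tal1, and the ratio of Tal1 to Lyl1 within an array shifted by 0.46 (log2) towards Tal1 in MEL.

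Both E protein genes among the members differed by less than Lyl1, while Tcf3 lay near Tal1 (-0.43 against -0.55). Tcf3, which encodes the E2A proteins (feature 10370837), read 9.60 and 9.67 in MEL and 10.09 and 10.03 in ES-EP cells. The difference was -0.43 ± 0.08 (SE, n = 2 per group), 1.35-fold lower in MEL (limma, adjusted p = 0.00388), with no overlap of the groups. Tcf12, which encodes HEB (feature 10594879), read 9.18 and 9.40 in MEL and 9.56 and 9.54 in ES-EP cells.

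Both MEL values of Tcf12 lay under the ES-EP values, but the MEL duplicates were 0.22 apart. Its difference of -0.26 ± 0.10 (SE, n = 2 per group, 95% interval -0.49 to -0.02) did not pass (limma, adjusted p = 0.0595). It passed without MEL culture B (-0.37, adjusted p = 0.018), with an intensity trend in the variance prior (adjusted p = 0.015) and with features under the median left out (adjusted p = 0.0414). The ratio of Tal1 to Tcf3 within an array shifted by -0.12 (log2), and by -0.19 after quantile normalization.

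The bridging proteins parted. Lmo2 (feature 10474201) read 10.26 and 10.32 in MEL and 11.55 and 11.51 in ES-EP cells. The groups were 1.19 apart at their nearest values, against 0.05 and 0.04 between duplicates. The difference of -1.24 ± 0.08 (SE, n = 2 per group, 95% interval -1.43 to -1.05) was the farthest from 0 of the 10 genes, 2.36-fold lower in MEL (limma, adjusted p = 1.82e-05). Only 3.02% of all genes were at least as far down, and it stayed at -1.27 to -1.09 in all 15 alternative fits, passing in each.

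Ldb1 (feature 10468159) read 11.15 and 11.18 in MEL and 11.25 and 11.29 in ES-EP cells. The groups did not overlap, but were only 0.06 apart at their nearest values. The difference of -0.10 ± 0.08 (SE, n = 2 per group, 95% interval -0.30 to 0.09) did not pass (limma, adjusted p = 0.303). Its sign turned after quantile normalization (0.040) and cyclic loess (0.0064). The ratio of Lmo2 to Ldb1 within an array, relative to its own mean, read -0.58 and -0.56 in MEL and 0.61 and 0.53 in ES-EP cells, a shift of -1.14 (log2), which was -1.13 after quantile normalization. For 4 arrays the smallest two-sided p of an exact permutation test is 0.333, and no p is given for such ratios.

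The corepressor gene Cbfa2t3 gave different answers on its 2 features. The brighter feature (10582429) read 8.72 and 8.73 in MEL and 7.67 and 7.71 in ES-EP cells. The groups were 1.01 apart at their nearest values, and the difference of 1.04 ± 0.08 (SE, n = 2 per group, 95% interval 0.85 to 1.23), 2.05-fold, passed (limma, adjusted p = 4.18e-05). The difference fell just under 2-fold after quantile normalization (0.99). Upward differences at least as far were seen in 6.95% of all genes.

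The dimmer feature of Cbfa2t3 (10582427) read 7.37 and 7.42 in MEL and 7.37 and 7.42 in ES-EP cells. The groups overlapped throughout, and the difference was 0.01 ± 0.08 (SE, n = 2 per group, 95% interval -0.19 to 0.20, limma, adjusted p = 0.962). The ratio of the brighter to the dimmer feature within an array was thus 1.03 higher on the log2 scale in MEL. Taken as the mean of both features, Cbfa2t3 differed by 0.52 (limma, adjusted p = 0.00125). The annotation assigns both features to the same RefSeq transcripts and the brighter one to further mRNAs as well. Where their probes lie was not analysed here, so which transcripts the difference concerns is unknown.

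**Figure D2:**
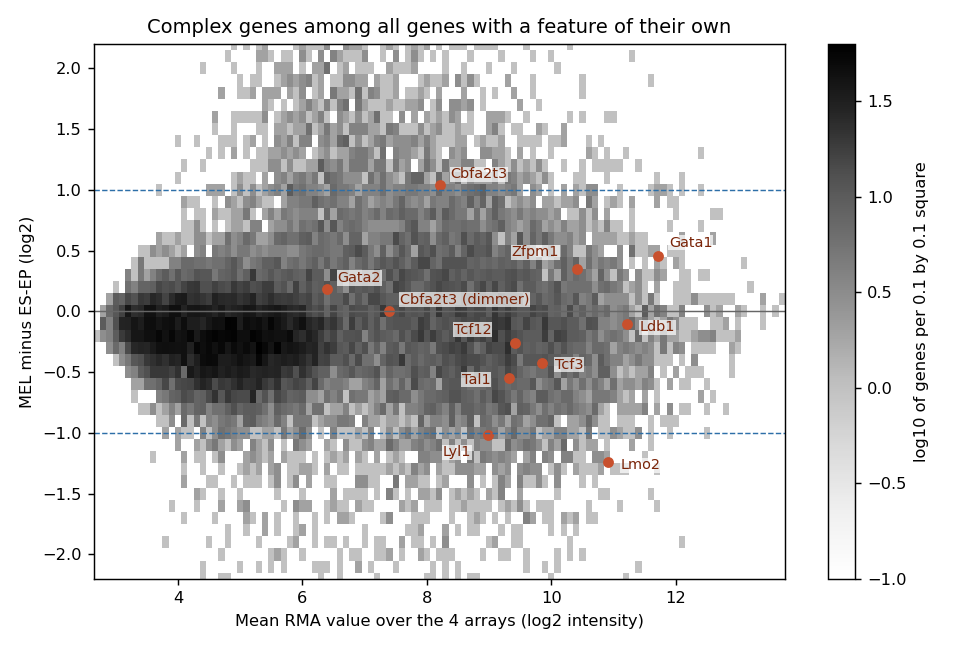
Difference of MEL minus ES-EP (log2, vertical axis) against the mean RMA value over the 4 arrays (log2 intensity, horizontal axis) for the member features (red) and all genes (grey shading by the number of genes per square), with dashed lines at a 2-fold difference. The vertical axis ends at 2.2 on either side, beyond which 538 genes are not shown; Lmo2 and Lyl1 lie under the lower line and the brighter Cbfa2t3 feature over the upper one.

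Among the pairs of members set against each other within an array, the ratio of Lmo2 to the brighter Cbfa2t3 feature shifted farthest, by -2.28 (log2). With the dimmer Cbfa2t3 feature in place of the brighter one the shift was -1.245. The first pair sets the lowest of the members' differences against the highest, so its rank follows from those differences alone. The ratio of Cbfa2t3 to Ldb1 shifted by 1.14 on the brighter feature, and by 0.95 after quantile normalization, but by 0.11 on the dimmer one, where quantile normalization turned it to -0.18. The ratio of Gata1 to Gata2 shifted by 0.27, but 1 ES-EP array (0.07) lay near the MEL arrays (0.15 and 0.12) and the other far under them (-0.35), and the shift was 0.48 after quantile normalization. The pairs were chosen after the values were known.

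**Figure D3:**
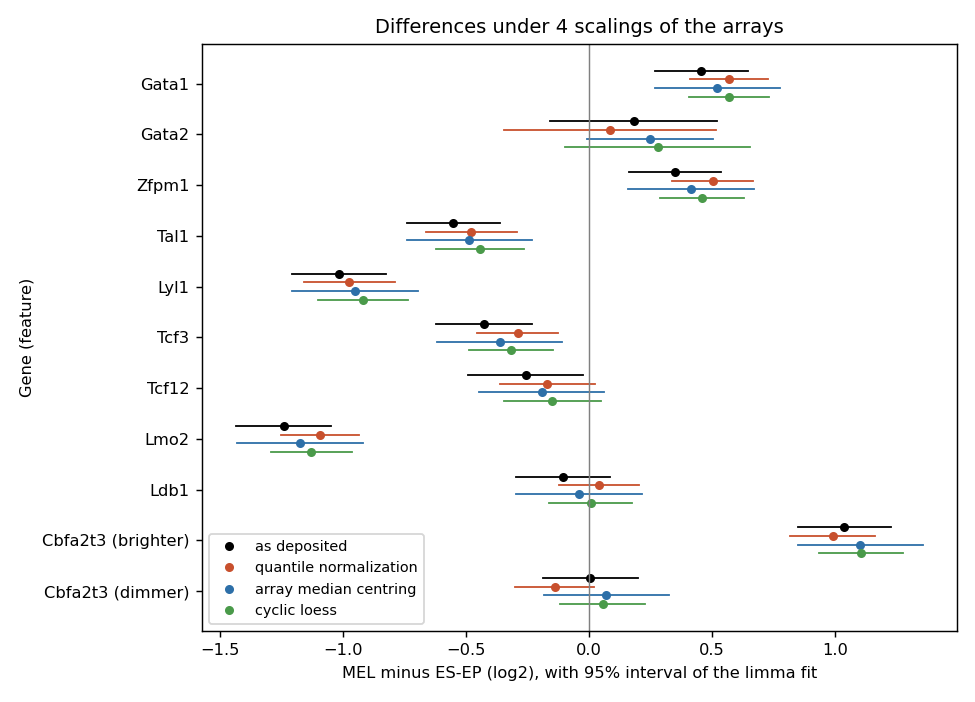
Difference of MEL minus ES-EP (log2, horizontal axis) of each member feature under 4 scalings of the arrays, with 95% intervals from the limma fit of 2 arrays per group. Under median centring the fit gave every member feature the same SE, 0.13, so those intervals do not reflect a gene's own duplicates. Gata1, Zfpm1 and the brighter Cbfa2t3 feature stay above 0 and Tal1, Lyl1, Tcf3 and Lmo2 below it under each scaling, while Ldb1 and the dimmer Cbfa2t3 feature cross 0.

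The genes whose profile lay nearest to Gata1 over the 4 arrays were Zdhhc1, Septin2 and Capza2, with Euclidean distances of 0.011 to 0.014 between the mean-centred log2 values. Their differences of MEL minus ES-EP were 0.46, 0.45 and 0.45. Nearest to Lmo2 were Tent5c, Phactr4 and Polr2h, at distances of 0.029 to 0.032 and differences of -1.21, -1.25 and -1.22. Over 4 arrays in 2 groups, this likeness rests on the size of the group difference and on the gaps between duplicates.

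Relatives of the members were counted next, with no test of a list as a whole. Each count stands beside 21.8% higher in MEL and 36.9% lower over all genes. The other GATA and FOG family genes were dim, with a median level of 5.18 in MEL against 5.38 in ES-EP. Of 6, 1 was higher in MEL and 3 were lower, or 2 after quantile normalization and cyclic loess. Gata3, a T cell factor, was 1.38-fold higher in MEL (limma, adjusted p = 0.00805), at 6.12 against 5.66, and Gata5, a factor of heart and gut, was 1.78-fold lower (adjusted p = 0.00192), at 5.44 against 6.27. Of 8 relatives of LMO2 and LDB1, with the SSBP genes whose products stabilise LDB1, 2 were higher, 2 were lower and 4 did not pass. Lmo4, a LIM-only relative of Lmo2, read 8.82 and 8.90 in MEL against 8.21 and 8.49 in ES-EP and was 1.42-fold higher (limma, adjusted p = 0.00693), but did not pass without ES-EP culture A (0.36, adjusted p = 0.0528). Lmo1 was dim at 4.14 and 4.43 and 1.22-fold lower (adjusted p = 0.0273). Under each of the 3 other scalings 0 of these 8 were lower, as without either ES-EP culture or MEL culture B. Of the 2 higher genes, 0 passed when ES-EP culture A was left out and 1 when ES-EP culture B or MEL culture A was.

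Helix-loop-helix partners and inhibitors held larger differences than the E proteins of the complex, except Id3 (-0.20), which did not pass. Of 7 such genes, 2 were higher in MEL and 4 lower, with a median difference of -0.52. Tcf4, the remaining E protein gene, read 8.12 and 8.31 in MEL and 6.66 and 6.74 in ES-EP cells. It was 2.85-fold higher in MEL (1.51 ± 0.10, SE, n = 2 per group, limma, adjusted p = 1.56e-05), the opposite direction to Tcf3, and the ratio of Tcf4 to Tcf3 within an array shifted by 1.94 (log2). Id1, whose product binds E proteins and keeps them from DNA, read 7.16 and 6.95 in MEL and 8.54 and 8.36 in ES-EP cells, 2.63-fold lower in MEL (-1.40 ± 0.11, SE, n = 2 per group, adjusted p = 4.22e-05). All 3 other scalings gave the same counts for this list.

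Of 25 corepressors and co-bound factors, 12 were higher in MEL, 5 were lower and 8 did not pass, beside 21.8% higher and 36.9% lower over all genes. Their median difference was 0.20 against -0.14 over all genes, but these genes are brighter than most. With features under the median level left out, 14 of the 23 that remained were higher and 3 lower, beside 34.7% and 37.1% of the 10646 genes that remained, whose median difference was -0.05. The 12 became 8 without either ES-EP culture, and 12 to 16 under the other scalings. Fli1, an ETS factor that meets GATA1 and TAL1 on megakaryocyte genes, was 18.7-fold higher in MEL (limma, adjusted p = 1.26e-07). Runx1t1, which encodes ETO, the founding relative of ETO2, was 2.54-fold lower (adjusted p = 3.84e-05), and was dim at 4.67 against 6.01.

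Most measured textbook targets that GATA1 activates were lower in MEL. The Gata1 feature was higher, with the limit given above for an introduced gene. Of 34 such targets, 25 had a feature of their own, of which 19 were lower, 5 were higher and 1 did not pass. Their median difference was -0.81, with 11 lower and 2 higher by at least 2-fold. Over all genes, 36.9% were lower and 21.8% higher, and by at least 2-fold 4.93% and 7.38%. All 25 remained with features under the median level left out, beside 37.1% lower and 34.7% higher among the 10646 genes that remained. Under the other scalings 18 of the 25 targets were lower and 5 higher. The lowest relative to ES-EP cells were Slc4a1 (43.4-fold), the red cell anion exchanger, Bcl2l1 (5.44-fold), which encodes the survival protein BCL-XL, the iron importer Slc25a37 (5.00-fold) and Cldn13 (4.28-fold). The higher ones were Trim10 (7.51-fold), the membrane skeleton gene Add2 (4.42-fold), the repressor gene Gfi1b (1.45-fold), Epor (1.34-fold), which encodes the erythropoietin receptor, and the member Zfpm1. Tal1 is also on this list, among the lower genes. The other measured genes of the list were tested and counted above but are not named. Listed genes without a feature of their own were not analysed here. Each named gene passed, with the highest adjusted p (limma) at Zfpm1, 0.00808.

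Textbook genes that GATA1 represses during maturation did not share a direction. Of 15, 4 were higher in MEL, 7 were lower and 4 did not pass, with a median difference of -0.12, near that of all genes. Higher were Fli1, the filament gene Vim (15.6-fold, limma, adjusted p = 1.27e-07), the myeloid factor Cebpa (2.50-fold, adjusted p = 5.68e-05) and the lymphoid factor Ikzf2 (0.58 on the log2 scale, adjusted p = 0.000836). The lowest relative to ES-EP cells were Kit (7.40-fold), the receptor of stem cell factor, Rgs18 (6.20-fold), Bcl11a (2.23-fold), a repressor of embryonic globin genes, and the member Lyl1, with adjusted p-values of 7.13e-07 to 4.7e-05 (limma). Gata2, the best known gene of this kind, is on this list and did not pass.

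**Figure D4:**
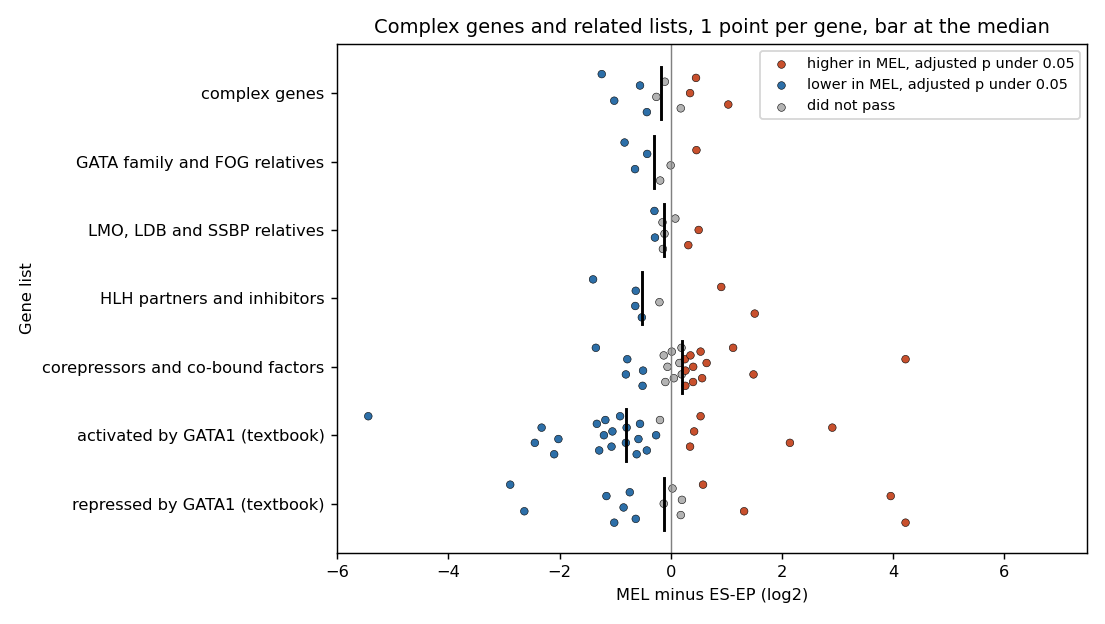
Difference of MEL minus ES-EP (log2, horizontal axis) of each gene in the complex and in 6 related lists, 1 point per gene, coloured by the limma call at an adjusted p under 0.05, with a bar at each list's median. The list activated by GATA1 has its median at -0.81 and 19 of 25 genes lower in MEL, beside 36.9% of all genes. The list of corepressors has its median at 0.20.

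Markers bear on the labels and on other cell types. The 11 measured erythroid markers averaged 10.5 and 10.6 in the MEL cultures and 11.5 in both ES-EP cultures, and 9 were lower and 2 higher in MEL. All of them but Tfrc are also on the list of genes activated by GATA1, so this count largely repeats that one. Markers of megakaryocytes, which also use GATA1, FOG1 and TAL1, averaged 6.66 and 6.65 in MEL against 6.01 and 6.02 in ES-EP, with 4 of 9 higher and 1 lower. The list did not move one way: its median difference was 0.13, and 4 of the 9 did not pass. Among genes named after their values were seen, Pf4 averaged 8.34 in MEL against 3.96 in ES-EP and Itga2b 9.12 against 6.89, whereas Itgb3 averaged 5.57 against 7.94. Markers of mast cells and basophils, in which Gata2 is active, averaged 5.58 and 5.56 in MEL and 5.94 and 5.90 in ES-EP cells, with 2 of 12 higher and 6 lower. Myeloid, lymphoid, endothelial and pluripotency markers averaged 4.46 to 5.17 on every array, and stem and progenitor markers 5.38 to 5.48. These averages hide differences in both directions. Of 10 stem and progenitor markers, 3 were higher in MEL and 4 lower. Meis1 averaged 7.20 in MEL against 4.23 in ES-EP, and Kit 5.37 against 8.25. Of 15 myeloid markers, 1 was higher and 6 lower, and of 14 lymphoid markers, 1 and 9. Of 10 endothelial markers, 1 was higher and 3 lower, and of 9 pluripotency markers, 2 and 5. Over all genes, 21.8% were higher and 36.9% lower. The part of other cell types in the differences of the members was not tested.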

How the data were processed

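The authors deposited log2 expression values summarised by RMA with GeneSpring GX software, as described per the labels. That they are log2 follows from their range, and no source used here gives the version or filters. Of 35557 features, 6613 control features were left out and 28944 tested. Names came from a platform annotation updated through Entrez identifiers with RefSeq (GRCm38.p6), which matched 21698 of 21789 features with 1 symbol. A gene with several features is counted by its brightest. The comparison of MEL with ES-EP used limma 3.58.1 under R 4.3.3 (lmFit, eBayes, 2 residual and 5.15 prior degrees of freedom), tested on simulated data. SEs are those of the moderated fit on the deposited values, which draws on the spread over all tested features as well as a gene's own. The number of arrays limits the precision. Members and lists were chosen with earlier results of these data known. All members were named, and from each related list the passing gene farthest in each direction (up to 4 for GATA1 targets). Alternatives were other scalings, priors, filters, feature sets, fold criteria, a replicate block and leaving out each culture. Protein sequences were not analysed here.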

Additional observations from a re-analysis of the deposited data

How the results depend on the processing

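The counts of members that passed (3 higher and 4 lower) were 3 and 4 to 5 in every alternative run on all 4 arrays. With an ES-EP culture left out, the passing members were not the same. Zfpm1 fell short without either ES-EP culture (0.35 in each fit), while Gata2 passed without culture A (0.41). The count at least 2-fold higher, 1 on the deposited values, was 0 after quantile normalization and with the mean of a gene's features. The count at least 2-fold lower, 2, was 1 after quantile normalization, median centring and cyclic loess, and 1 to 2 with a culture left out. The genes that crossed the 2-fold line are Cbfa2t3 and Lyl1, which passed the test in each of these fits. Among the members, signs turned only for features that had not passed: Ldb1 after quantile normalization (0.040) and cyclic loess (0.0064), the dimmer Cbfa2t3 feature after quantile normalization (-0.14) and with a culture left out (-0.020 to 0.030), and Gata2 with a culture left out (-0.042 to 0.41). The cause was not tested. Of the 164 alternative values of the member features, 152 kept direction and side of the threshold. Many of them could not change direction, since other priors, other filters and the replicate block leave the difference itself as it was. The replicate letters do not pair the cultures by the labels; deviations of same-lettered cultures correlated at 0.11 over features in 2 pairs, and with the letter as a replicate block 3 members were higher and 4 lower, as without it. With 2 arrays per group and no detection calls, whether the Gata2 feature stands above background was not measured.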
